A study of Mus musculus with 18 samples.

Results

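The oxysterol synthesis and sensing genes examined here were Ch25h, Cyp7b1, Cyp27a1, Hsd3b7 and Gpr183. They were taken from the deposited table by gene symbol, and all 5 were among its 18668 gene symbols. Their transcript levels were followed in mouse bone marrow-derived macrophages (BMDM), obtained by growing marrow cells in medium with 20 ng/ml of the growth factor M-CSF. The cells came from C57BL6 mice that lacked Apoe (Apoe-/-) or lacked both Apoe and Treml4 (Apoe-/-/Treml4-/-, written DKO), so every group lacked Apoe and no group with intact Apoe was included. They were given vehicle (PBS; untreated) or oxLDL (oxidized low-density lipoprotein, whose uptake loads macrophages with cholesterol) at 10 µg/ml (oxLDL 10) or 60 µg/ml (oxLDL 60), with 3 biological replicates in each of the 6 groups. The series design gives 16 hours of oxLDL, whereas the methods of the study give a longer exposure. A protocol text attached to the samples also describes lipopolysaccharide, which neither the sample titles nor the series design mention. The age and the sex of the mice were not given in the labels.

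Oxysterols are oxidized forms of cholesterol. Ch25h and Cyp27a1 each add a hydroxyl group to the side chain of cholesterol, Ch25h in the endoplasmic reticulum and Cyp27a1 in mitochondria. Cyp7b1 adds a further hydroxyl group to these products and so makes the ligands of Gpr183 (also called EBI2), a G protein-coupled receptor that guides the migration of immune cells, while Hsd3b7 acts on the Cyp7b1 products and removes the ligand. In macrophages Ch25h is known as a gene induced by interferon and by bacterial products, and its product restrains the sterol-regulated transcription factor SREBP2. Oxysterols also activate the nuclear receptors of the LXR family, which switch on cholesterol export genes.

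The libraries were checked before the genes were read. Depth recovered from the table lay between 39.7 and 54.2 M reads or read pairs per library. Treml4 stood between 1.86 and 8.39 RPKM (reads scaled to the length of the transcript and the size of the library) in the 9 Apoe-/- libraries and was listed at 0 in 8 of the 9 DKO libraries and at 0.0116 RPKM in untreated DKO replicate 2. Residual Apoe transcripts of 0.349 to 4.13 RPKM were listed. All 8 listed macrophage markers (Adgre1, Csf1r, Cd68, Itgam, Mertk, Fcgr1, Lyz2 and Cd14) were detected. Markers of other cells were mixed. Cd3e of T cells and Ly6g of neutrophils had a median of 0 RPKM over the 18 libraries, but Cd4 stood at 0.300 to 0.725 RPKM, Mpo and Elane of neutrophil precursors at 0.745 to 1.55 and 0.578 to 1.51 RPKM, S100a8 and S100a9 at 9.22 to 28.4 and 12.6 to 39.9 RPKM, and Cd79b of B cells at 1.15 to 2.35 RPKM. The stromal gene Col1a2 ranged from 0.323 to 7.48 RPKM. Of 5 dendritic cell markers, Xcr1 reached 0.213 RPKM and the others at most 0.0877 RPKM. Xist, transcribed in female cells, was at 7.25 to 14.5 RPKM in 6 libraries (Apoe-/- replicate 2 and DKO replicate 3 at every treatment) and at most 0.0690 RPKM in the other 12, so animals of both sexes were present.

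The 3 genes whose transcripts changed with oxLDL are shown first by the 250 bases directly upstream of their RefSeq start. Whether these sequences have a part in the changes was not tested. RefSeq entries (GRCm38.p6) were matched by symbol for 4 of the 5 genes. The sequences are given 5′ to 3′ on the strand of the gene, and capitals mark matches to 8 motifs searched on both strands. The motifs were chosen after these sequences had been seen.
Ch25h, chr19:34475149-34475398, minus strand: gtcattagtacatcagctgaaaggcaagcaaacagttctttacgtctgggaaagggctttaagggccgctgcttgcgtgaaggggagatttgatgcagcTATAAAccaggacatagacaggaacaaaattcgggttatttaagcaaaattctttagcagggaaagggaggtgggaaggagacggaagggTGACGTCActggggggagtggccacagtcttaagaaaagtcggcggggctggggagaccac
Hsd3b7, chr7:127800359-127800608, plus strand: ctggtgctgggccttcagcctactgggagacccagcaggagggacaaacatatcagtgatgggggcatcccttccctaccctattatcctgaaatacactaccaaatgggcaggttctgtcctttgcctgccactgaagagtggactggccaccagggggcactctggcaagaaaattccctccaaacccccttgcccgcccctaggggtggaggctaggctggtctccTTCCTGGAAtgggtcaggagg
Gpr183, chr14:121965194-121965443, minus strand: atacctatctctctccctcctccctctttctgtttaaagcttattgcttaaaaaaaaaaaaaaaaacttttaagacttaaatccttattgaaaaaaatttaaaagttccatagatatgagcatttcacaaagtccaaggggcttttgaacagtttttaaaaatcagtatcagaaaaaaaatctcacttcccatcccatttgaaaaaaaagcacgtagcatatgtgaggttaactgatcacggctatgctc
The Ch25h sequence held the full palindrome TGACGTCA, the cyclic AMP response element, 61 to 54 bases upstream of the start, and TATAAA 151 to 146 bases upstream. Of 32851 promoters of this length, 1.55% held TGACGTCA and 12.4% held TATAAA on either strand. The Hsd3b7 sequence held TTCCTGGAA 21 to 13 bases upstream, a match to TTCNNNGAA (the STAT site), which 7.02% of promoters held. The Gpr183 sequence had a GC content of 32.0%, against 50.4% for Ch25h and 58.0% for Hsd3b7, and held no match. The other motifs searched were the interferon-stimulated response element (in 2.98% of promoters), the NF-kB site (0.356%), the AP-1 site TGANTCA (6.75%), the LXR direct repeat 4 (0.0152%) and the sterol regulatory element TCACNCCAC (1.05%). None of these was found in the windows of Ch25h, Hsd3b7, Gpr183 or Cyp27a1, and Cyp27a1 held no match to any of the 8. A match describes the letters and does not show that a factor binds there.

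In the mm10 genome (GRCm38, GENCODE M21), Ch25h is a gene of a single exon at chr19:34473778-34475164 on the minus strand. Cyp7b1 lies at chr3:18071950-18243338 on the minus strand, Cyp27a1 at chr1:74713574-74737892 on the plus strand and Hsd3b7 at chr7:127800604-127803802 on the plus strand. Gpr183 lies at chr14:121952551-121965195 on the minus strand, inside the gene Ubac2 of the plus strand, and shares no exon with it. The exons of Ch25h overlap those of the antisense transcript Gm26902. Exons of Hsd3b7 overlap those of Gm49388 on the same strand and of 9430064I24Rik on the other. These 3 overlapping genes had no row in the table, and whether counting used the strand is not stated, so reads of Ch25h and Hsd3b7 cannot be told apart from theirs.

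The 5 genes differed widely in level, and their order changed with oxLDL. Values in RPKM are per length, so a comparison between genes depends on the length used and on the overlaps named above. The length that gave whole reads was 1823 bases for Hsd3b7, against 2769 bases of GENCODE exons. For Ch25h it was 1365 against 1387 bases, and for Cyp27a1 1936 against 2173. In untreated cells the order of the means was Ch25h, Hsd3b7, Gpr183, Cyp27a1 and Cyp7b1 in both genotypes. Ch25h and Hsd3b7 overlapped in Apoe-/- libraries but not in DKO libraries, and the other neighbours did not overlap. With oxLDL 10 the order was Hsd3b7, Gpr183, Ch25h, Cyp27a1 and Cyp7b1, and Gpr183 and Ch25h overlapped in Apoe-/- only. With oxLDL 60 Ch25h stood below Cyp27a1 as well, and no neighbours in the order overlapped in either genotype, although the gap in Apoe-/- was narrow (lowest Cyp27a1 library 2.68 RPKM, highest Ch25h library 2.61 RPKM).

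**Figure D1:**
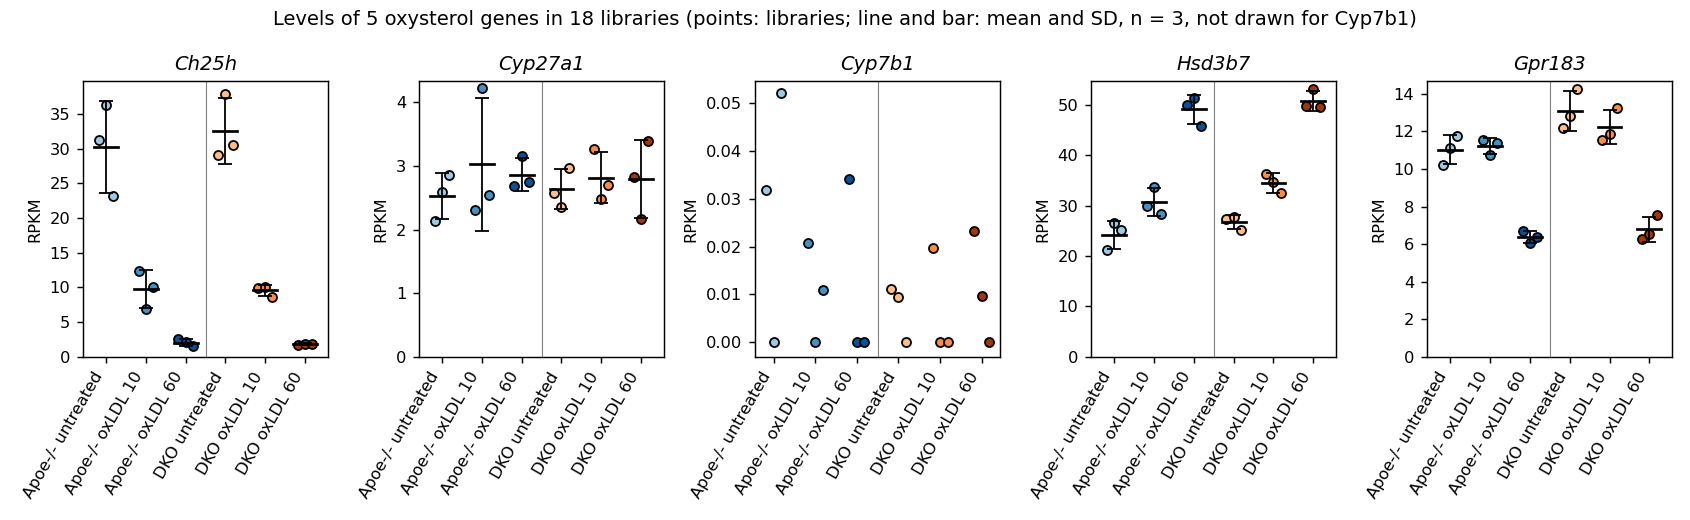
RPKM of the 5 genes in each of the 18 libraries (one panel a gene, each with its own vertical axis), with the mean and SD of 3 replicates except for Cyp7b1. Ch25h falls stepwise from 23.2 to 37.9 RPKM in untreated libraries to 1.49 to 2.61 RPKM with oxLDL 60, Hsd3b7 rises, Gpr183 is lower with oxLDL 60, and Cyp7b1 stays at or below 0.0519 RPKM.

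Calls required an adjusted p below 0.05 (limma, Benjamini-Hochberg over all genes tested) together with a change of 1.4-fold or more. Of the 5 genes, 4 passed the filter on low values and were tested among 12838 genes. Cyp7b1 did not pass. With oxLDL 10 against untreated cells, 1 of the 4 was called in each genotype, Ch25h, which was lower. Of all genes tested, 2.79% were called in Apoe-/- and 2.26% in DKO, and 2.04% and 1.69% were called lower. With oxLDL 60 against untreated cells, 3 of the 4 were called in each genotype, Hsd3b7 higher and Ch25h and Gpr183 lower. There 13.9% of all genes were called in Apoe-/- (7.13% higher, 6.78% lower) and 12.2% in DKO (4.87% higher, 7.31% lower). The same 3 genes were called in the same directions with oxLDL 60 against oxLDL 10, where 6.46% of all genes were called in Apoe-/- (2.91% higher, 3.54% lower) and 5.66% in DKO (1.92% higher, 3.74% lower). Of the genes called in this DKO comparison, 33.9% were higher, and 50.1% after the libraries were rescaled by the median ratio. The comparisons within a genotype share libraries. All these calls were kept without the 6 Xist libraries.

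**Figure D2:**
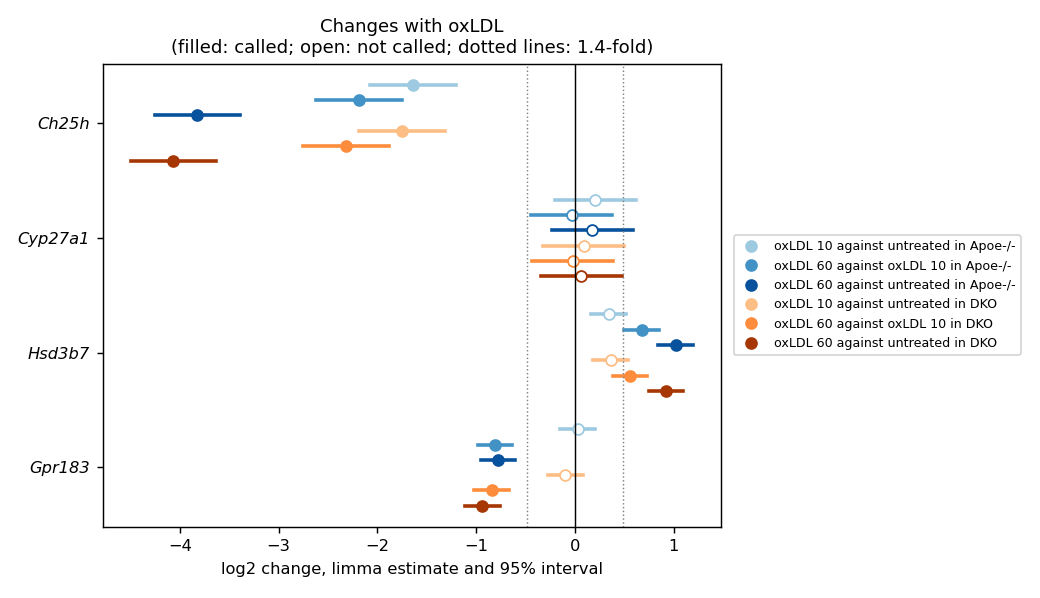
Log2 changes of the 4 tested genes with oxLDL in both genotypes (points: limma estimates; lines: 95% intervals; filled points: called; dotted lines: 1.4-fold). Ch25h lies far to the left in all 6 comparisons, Hsd3b7 to the right, Gpr183 is to the left only where oxLDL 60 is compared, and all Cyp27a1 intervals cross 0.

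Ch25h, the enzyme that hydroxylates cholesterol in the endoplasmic reticulum, fell at both amounts of oxLDL. Apoe-/- replicates 1, 2 and 3 had 31.2, 36.3 and 23.2 RPKM untreated, 12.4, 6.92 and 10.0 RPKM after oxLDL 10 and 2.61, 2.08 and 1.49 RPKM after oxLDL 60. DKO replicates 1, 2 and 3 had 29.1, 37.9 and 30.6 RPKM untreated, 9.98, 10.1 and 8.66 RPKM after oxLDL 10 and 1.71, 1.89 and 1.91 RPKM after oxLDL 60. The 3 treatments did not overlap in either genotype. Means fell from 30.2 ± 6.63 to 9.76 ± 2.73 and 2.06 ± 0.559 RPKM in Apoe-/- cells and from 32.5 ± 4.71 to 9.57 ± 0.792 and 1.84 ± 0.108 RPKM in DKO cells (SD, n = 3). The ratio of means was 3.10-fold lower with oxLDL 10 and 14.7-fold lower with oxLDL 60 in Apoe-/-, and 3.40-fold and 17.7-fold lower in DKO.

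On the log2(RPKM + 0.1) scale, on which fold changes of low genes are understated, the Ch25h change with oxLDL 10 was -1.64 (SE 0.20, adjusted p = 0.000187 by limma) in Apoe-/- and -1.75 (adjusted p = 0.000106) in DKO. With oxLDL 60 it was -3.82 (95% interval -4.25 to -3.39, adjusted p = 7.82e-10) and -4.07 (-4.50 to -3.63, adjusted p = 5.97e-10). Going from oxLDL 10 to oxLDL 60 it fell by a further 2.19 in Apoe-/- (adjusted p = 2.11e-06) and 2.32 in DKO (adjusted p = 2.04e-06). Counted from the most negative estimate among the 12838 genes tested, Ch25h with oxLDL 60 had rank 12 in Apoe-/- and rank 3 in DKO. Ch25h was lower in 6 of 6 pairs of libraries with the same replicate number at both amounts. The shares of all genes lower in 6 of 6 pairs, or with treatments that did not overlap, were not counted. From 87 to 2547 reads per library lay behind these values. In bulk RNA, fewer cells of a type and less RNA per cell cannot be told apart. The summed level of the 8 macrophage markers, most of it from Lyz2, also moved with oxLDL 60 (median 11188 RPKM untreated and 6922 RPKM with oxLDL 60 in Apoe-/-, 9152 and 5746 RPKM in DKO). Without Lyz2 the medians were 2156 and 1654 RPKM in Apoe-/- and 2001 and 1590 RPKM in DKO. Of the 8 markers, 4 were called lower, 1 higher and 3 not in Apoe-/-, and 3, 1 and 4 in DKO. The log2 changes ran from -1.61 (Cd14) to 0.68 (Mertk) in Apoe-/- and from -1.81 (Cd14) to 0.70 (Mertk) in DKO. The part of these changes in the result was not tested.

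Hsd3b7, the enzyme that removes the receptor ligand, rose with oxLDL 60. Apoe-/- replicates 1, 2 and 3 had 21.1, 26.5 and 25.1 RPKM untreated, 30.0, 33.8 and 28.4 RPKM after oxLDL 10 and 50.1, 51.4 and 45.9 RPKM after oxLDL 60. DKO replicates 1, 2 and 3 had 27.4, 27.8 and 25.1 RPKM untreated, 36.4, 34.7 and 32.5 RPKM after oxLDL 10 and 49.8, 53.1 and 49.6 RPKM after oxLDL 60. The 3 treatments did not overlap in either genotype. With oxLDL 60 the mean was 2.03-fold that of untreated cells in Apoe-/- (24.2 ± 2.78 and 49.1 ± 2.89 RPKM) and 1.90-fold in DKO (26.8 ± 1.45 and 50.8 ± 1.99 RPKM). The log2 change was 1.02 (95% interval 0.84 to 1.20, adjusted p = 7.65e-08 by limma) and 0.92 (0.75 to 1.10, adjusted p = 2.83e-07). From oxLDL 10 to oxLDL 60 it was 0.68 (adjusted p = 3.05e-05) and 0.56 (adjusted p = 0.000214).

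With oxLDL 10 Hsd3b7 passed the limit on the adjusted p but not the limit on the fold change and was not called. Its log2 change there was 0.34 (adjusted p = 0.0191 by limma) in Apoe-/- and 0.37 (adjusted p = 0.0174) in DKO, and it was higher in 6 of 6 pairs of libraries with the same replicate number. Over all genes the median change was 0.07 and 0.02, and 22.4% and 13.2% had an unadjusted p under 0.05 by limma. The shares of all genes higher in 6 of 6 pairs, or with treatments that did not overlap, were not counted. From 1683 to 4946 reads per library lay behind the Hsd3b7 values.

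The levels of Hsd3b7 and Ch25h moved apart within each library. The ratio of their RPKM was 0.676, 0.729 and 1.08 in untreated Apoe-/- libraries, 2.43, 4.88 and 2.84 with oxLDL 10, and 19.2, 24.7 and 30.8 with oxLDL 60. In DKO libraries it was 0.941, 0.733 and 0.821 untreated, 3.64, 3.44 and 3.76 with oxLDL 10, and 29.0, 28.1 and 26.0 with oxLDL 60. The treatments did not overlap in either genotype. The mean ratio went from 0.830 ± 0.222 to 24.9 ± 5.79 in Apoe-/- and from 0.832 ± 0.104 to 27.7 ± 1.58 in DKO (SD, n = 3). The smallest p that an exact two-sided permutation test of 3 against 3 libraries can give is 0.1, and no p is given for the ratio.

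**Figure D3:**
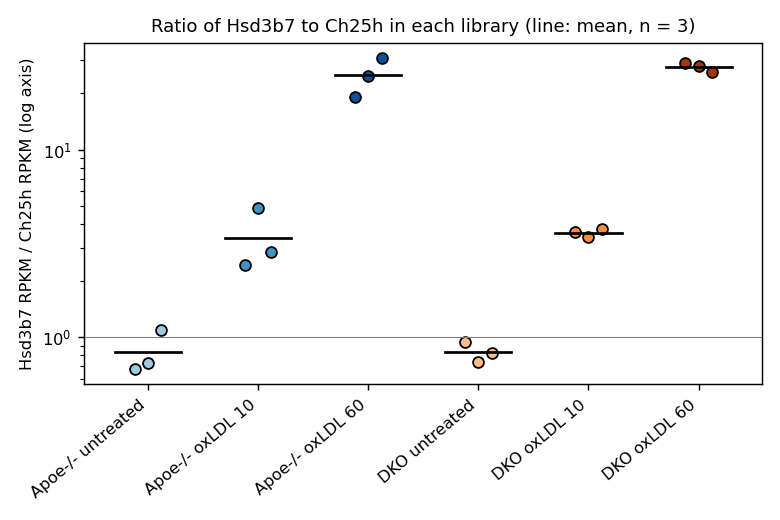
Hsd3b7 RPKM divided by Ch25h RPKM in each library on a log axis (points: libraries; line: mean of 3). The ratio lies between 0.676 and 1.08 in untreated libraries of both genotypes and between 19.2 and 30.8 with oxLDL 60.

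Gpr183, the receptor, was lower with oxLDL 60 but not measurably with oxLDL 10. Apoe-/- replicates 1, 2 and 3 had 10.2, 11.1 and 11.7 RPKM untreated, 11.6, 10.8 and 11.4 RPKM after oxLDL 10 and 6.72, 6.04 and 6.38 RPKM after oxLDL 60. DKO replicates 1, 2 and 3 had 12.2, 12.8 and 14.3 RPKM untreated, 11.5, 11.9 and 13.3 RPKM after oxLDL 10 and 6.29, 6.53 and 7.54 RPKM after oxLDL 60. The oxLDL 60 libraries lay below all others of their genotype, while untreated and oxLDL 10 libraries overlapped. The share of all genes separated in this way was not counted. The log2 change with oxLDL 60 was -0.78 (95% interval -0.95 to -0.60, adjusted p = 1.61e-06 by limma) in Apoe-/- and -0.94 (-1.11 to -0.76, adjusted p = 2.21e-07) in DKO, and the means were 1.73-fold and 1.93-fold lower. Among the 8 macrophage markers, the log2 change with oxLDL 60 was -0.61 and -0.71 for Lyz2 and -0.34 and -0.37 for Csf1r. It was -1.61 and -1.81 for Cd14, -0.80 and -0.90 for Fcgr1, -0.50 and -0.47 for Adgre1 and -0.25 and -0.24 for Itgam. It was 0.42 and 0.29 for Cd68 and 0.68 and 0.70 for Mertk. Of the 8, 4 were called lower, 1 higher and 3 not in Apoe-/-, and 3, 1 and 4 in DKO. The part of such changes in that of Gpr183 was not tested. With oxLDL 10 the Gpr183 change was 0.03 (-0.15 to 0.20, adjusted p = 0.885) and -0.10 (-0.27 to 0.08, adjusted p = 0.758), intervals that do not reach a 1.4-fold change. From oxLDL 10 to oxLDL 60 it was -0.81 (adjusted p = 5.24e-06) and -0.84 (adjusted p = 4.87e-06). Ubac2, within which Gpr183 lies, was not called with oxLDL 60 (log2 change -0.02, adjusted p = 0.893 in Apoe-/-, and -0.17, adjusted p = 0.101 in DKO). From 736 to 1983 reads per library lay behind Gpr183.

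Cyp27a1, the mitochondrial sterol hydroxylase, was not called in any comparison. Apoe-/- replicates 1, 2 and 3 had 2.14, 2.59 and 2.86 RPKM untreated, 2.31, 4.22 and 2.54 RPKM after oxLDL 10 and 2.68, 3.16 and 2.74 RPKM after oxLDL 60. DKO replicates 1, 2 and 3 had 2.57, 2.36 and 2.97 RPKM untreated, 3.26, 2.49 and 2.69 RPKM after oxLDL 10 and 2.83, 2.16 and 3.39 RPKM after oxLDL 60. All treatments overlapped. The log2 change with oxLDL 60 was 0.18 (95% interval -0.23 to 0.59, adjusted p = 0.539 by limma) in Apoe-/- and 0.07 (-0.35 to 0.48, adjusted p = 0.848) in DKO, and the first interval includes a 1.4-fold rise. From 181 to 358 reads per library lay behind it.

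Cyp7b1, the enzyme that makes the receptor ligand, was at the limit of detection. It was listed between 0 and 0.0519 RPKM, which with a transcript length of 2166 bases came to between 0 and 5 reads in a library and 22 reads over all 18. A level of 3 reads corresponds to 0.0256 to 0.0348 RPKM, and this limit covers counting error only. In Apoe-/- replicates 1, 2 and 3 there were 3, 0 and 5 reads untreated, 2, 0 and 1 with oxLDL 10, and 4, 0 and 0 with oxLDL 60. In DKO replicates there were 1, 1 and 0 reads untreated, 2, 0 and 0 with oxLDL 10, and 2, 1 and 0 with oxLDL 60. No difference between the groups was detectable at this depth. The libraries with Xist, Apoe-/- replicate 2 and DKO replicate 3 at every treatment, all had 0 reads. Whether the sex of the animals has a part in this was not tested. When the gene was fitted without the filter, the lowest adjusted p over the comparisons was 0.436 by limma.

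Differences between the genotypes were examined next. None of the 4 tested genes was called between DKO and Apoe-/- cells at any treatment, where 0.21% of all genes were called untreated, 0.0857% with oxLDL 10 and 0.125% with oxLDL 60. By unadjusted p under 0.05, 1 gene was below the limit, Gpr183 in untreated cells. Over all genes 17.3% were below this limit in the same comparison, with a median log2 difference of 0.09. Gpr183 was 0.24 higher in DKO on the log2 scale (95% interval 0.07 to 0.42, unadjusted p = 0.00932 and adjusted p = 0.171 by limma). Means were 11.0 ± 0.756 RPKM in Apoe-/- and 13.1 ± 1.08 RPKM in DKO. Rescaling the libraries by the median ratio brought this difference to 0.14 (adjusted p = 0.546). The genotype difference of Ch25h was 0.12 (95% interval -0.31 to 0.55) untreated, 0.01 (-0.43 to 0.44) with oxLDL 10 and -0.12 (-0.56 to 0.31) with oxLDL 60. That of Hsd3b7 was 0.15 (-0.03 to 0.32), 0.17 (-0.01 to 0.34) and 0.05 (-0.13 to 0.23), so differences over 1.4-fold lay outside its intervals.

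The change with oxLDL was also compared between genotypes by an interaction term, and none of the 4 genes was called or had an unadjusted p under 0.05 (lowest 0.194, Gpr183 with oxLDL 60), with 0% of all genes called for oxLDL 10 and 0.0156% for oxLDL 60. The count of all genes at an unadjusted p under 0.05 was 246 and 1256. For oxLDL 60 the interaction was -0.24 for Ch25h (95% interval -0.86 to 0.37, adjusted p = 0.780 by limma), -0.10 for Hsd3b7 (-0.35 to 0.15, adjusted p = 0.783) and -0.16 for Gpr183 (-0.41 to 0.09, adjusted p = 0.637). The Ch25h interval is wide enough to hold a fall in DKO over 1.4-fold larger than in Apoe-/-.

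**Figure D4:**
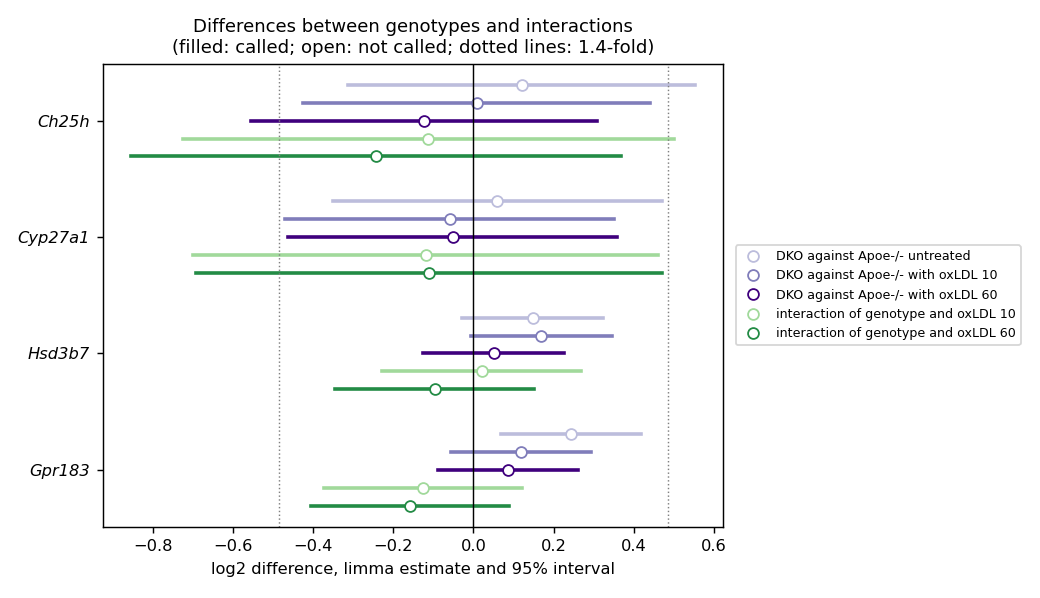
Log2 differences between DKO and Apoe-/- cells at each treatment, and interactions of genotype with oxLDL, for the 4 tested genes (points: limma estimates; lines: 95% intervals; open points: not called; dotted lines: 1.4-fold). No gene is called, and the interval of Gpr183 in untreated cells, from 0.07 to 0.42, does not cross 0.

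The surrounding pathway was described with lists from textbook knowledge. Of 21 other oxysterol and bile acid synthesis genes, 12 were tested. With oxLDL 60 Por, which supplies electrons to microsomal cytochrome P450 enzymes, was the single gene called higher, with a log2 change of 1.22 (adjusted p = 2.82e-07 by limma) in Apoe-/- and 0.86 (adjusted p = 1.59e-05) in DKO. With 7.13% and 4.87% of all genes called higher, 1 of 12 is near the background. The single gene called lower was Stard3, a sterol transfer protein of late endosomes, in DKO (-0.50, adjusted p = 0.000583). It was chosen after its values were seen, and it was not called without DKO untreated replicate 3 or DKO oxLDL 60 replicate 2. With oxLDL 10 none of the 12 was called in either genotype, while 1 was called higher without Apoe-/- oxLDL 10 replicate 2 in Apoe-/-, and 1 in DKO without DKO untreated replicate 1, DKO untreated replicate 2 or DKO oxLDL 10 replicate 3. The medians of the list with oxLDL 60 were 0.20 and 0.05, against 0.06 and -0.06 over all genes.

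Of 25 tested genes for sterol sensing and oxysterol binding, 8 were called higher and 4 lower with oxLDL 60 in Apoe-/-, and 5 higher and 4 lower in DKO. Over all genes, 7.13% were called higher and 6.78% lower in Apoe-/-, and 4.87% and 7.31% in DKO. Genes called lower in both genotypes were Srebf2, which encodes SREBP2 (-1.18 and -1.23), Osbpl3 of the oxysterol-binding protein family (-1.02 and -0.97), Nr1h3, which encodes LXR alpha (-1.01 and -0.91), and Insig1, which holds SREBP in the endoplasmic reticulum (-0.95 and -0.99). Called higher in both genotypes were 5 genes, Npc1, which exports cholesterol from lysosomes (0.74 and 0.72), Osbp2 (0.84 and 0.79), Osbpl1a (0.54 and 0.50), the nuclear receptor gene Rora (0.54 and 0.76) and Gramd1b, a sterol transfer protein (0.54 and 0.49). Insig1, Rora and Gramd1b were chosen after their values were seen. Osbp2 was near the filter on low values, with 0.1 RPKM reached in 5 of 6 oxLDL 60 libraries and in 2 of the other 12, so its call rests on the group where it was high. With oxLDL 10, 2 were called lower in each genotype, Srebf2 (-1.06 and -1.07) and Insig1 (-0.94 and -0.95), beside 2.04% and 1.69% of all genes. The medians of the list with oxLDL 60 were 0.12 and 0.04, against 0.06 and -0.06 over all genes. The count of genes called higher with oxLDL 60 depended on single libraries. It was 4 in Apoe-/- without untreated replicate 1, and 2 in DKO without untreated replicate 3, oxLDL 60 replicate 1 or oxLDL 60 replicate 2. With oxLDL 10 in DKO it was 0, and 2 without oxLDL 10 replicate 3.

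Of 14 tested LXR target genes, 6 were called higher and 2 lower with oxLDL 60 in Apoe-/-, and 7 higher and 2 lower in DKO. Over all genes, 7.13% were called higher and 6.78% lower in Apoe-/-, and 4.87% and 7.31% in DKO. The cholesterol exporters Abcg1 (2.08 and 2.79) and Abca1 (1.29 and 2.19) and the ubiquitin ligase gene Mylip (1.39 and 1.61) were higher, whereas Fasn (-1.39 and -1.28) of fatty acid synthesis and Lpl (-0.81 and -0.68), a lipase, were lower. Between genotypes with oxLDL 60, the difference (DKO minus Apoe-/-) was -0.04 for Abcg1, 0.10 for Abca1 and -0.02 for Mylip, none called. Because their rises were larger in DKO, the estimates of Abcg1, Abca1 and Mylip in untreated cells were lower in DKO, but not called. In untreated cells 1 of the 14, Scd2, was called lower in DKO (-1.13, adjusted p = 0.0106 by limma). Scd2 was chosen after its values were seen. None of the 14 was called in either interaction. With oxLDL 10, 5 were called higher in each genotype, while 96 of all 12838 genes tested were called higher in Apoe-/- and 73 in DKO. Of the 14, Fasn was the single gene called lower with oxLDL 10 in Apoe-/-, and none was called lower in DKO.

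Of 20 tested SREBP2 target genes, 14 were called lower with oxLDL 10 and 13 with oxLDL 60 in Apoe-/-, and 12 and 13 in DKO, with none called higher. Their medians were -0.60 and -0.70 in Apoe-/- and -0.57 and -0.74 in DKO. Over all genes the medians were 0.07 and 0.06 in Apoe-/- and 0.02 and -0.06 in DKO. Of all genes, 2.04% and 6.78% were called lower in Apoe-/- and 1.69% and 7.31% in DKO. Idi1, an enzyme of cholesterol synthesis, was among the genes called lower with oxLDL 60 in both genotypes (-2.33 and -2.28).

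Of 24 tested type I interferon response genes, 20 were called lower with oxLDL 10 and 23 with oxLDL 60 in Apoe-/-, and 20 and 24 in DKO, with none called higher. Their medians were -0.97 and -2.02 in Apoe-/- and -0.76 and -1.98 in DKO. Over all genes the medians were 0.07 and 0.06 in Apoe-/- and 0.02 and -0.06 in DKO. Of all genes, 2.04% and 6.78% were called lower in Apoe-/- and 1.69% and 7.31% in DKO. The chemokine gene Cxcl10 (-5.39 and -4.58), Ifit1 (-3.96 and -3.88) and Ifit3 (-3.64 and -3.47) had the largest falls with oxLDL 60 in Apoe-/-. The log2 change of Ch25h with oxLDL 60, -3.82 in Apoe-/- and -4.07 in DKO, lay below the medians of this list. The count of 20 with oxLDL 10 in DKO was 9 without DKO untreated replicate 3 and 13 without DKO oxLDL 10 replicate 2.

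**Figure D5:**
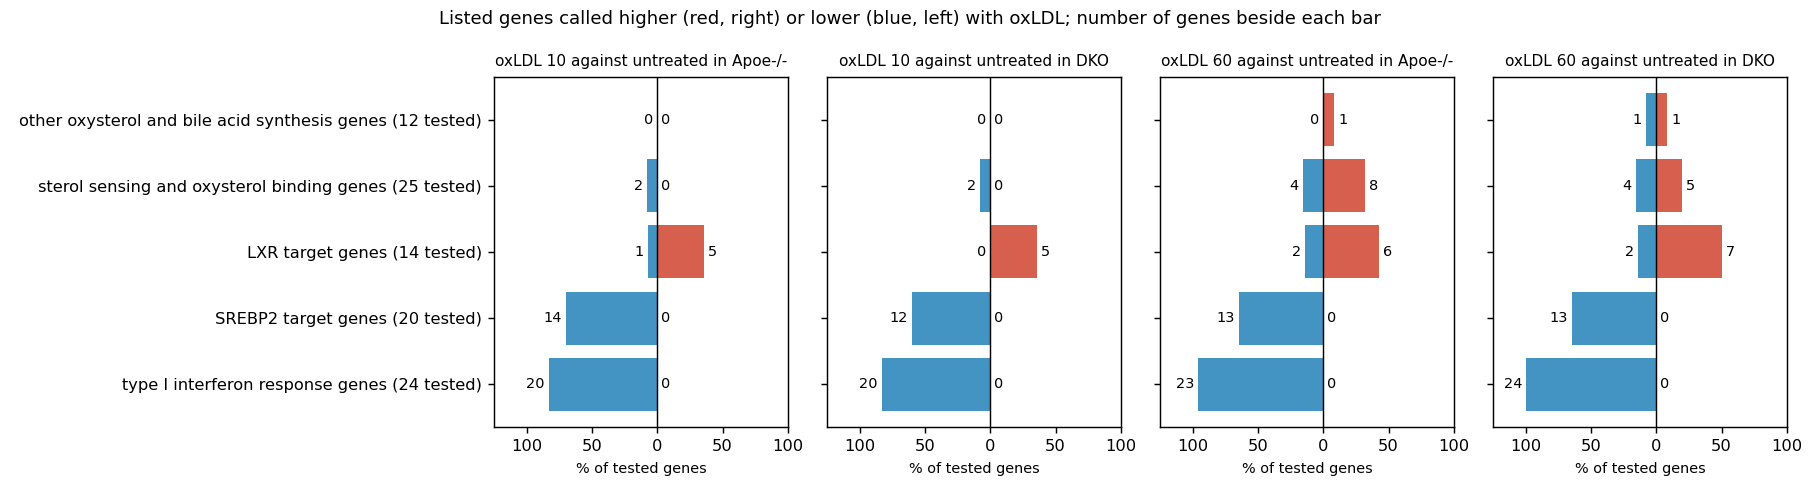
Percent of the tested genes of 5 lists called higher (to the right) or lower (to the left) with oxLDL in each genotype, with the number of genes beside each bar. Interferon response and SREBP2 target genes are called lower only, and LXR target genes are called mostly higher.

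The genes whose pattern was most like each member were found by Pearson correlation of log2(RPKM + 0.1) over the 18 libraries, among 10101 genes with a mean of at least 1 RPKM. The 18 points fall into 6 groups of libraries that share a treatment and genotype, and the values are a description. For Ch25h the closest were Gpr84 (r = 0.987), Filip1l (0.985) and Tlr2 (0.982). For Hsd3b7 they were Serpinb9 (0.988), Cgnl1 (0.987) and Rnf128 (0.985), and for Gpr183 they were Lfng (0.978), Prkch (0.977) and Glrx (0.975). For Cyp27a1, which varied little, they were Pccb (0.842), Bckdha (0.797) and Gatd1 (0.782). Among the members themselves, r was -0.95 for Ch25h and Hsd3b7, 0.88 for Ch25h and Gpr183 and -0.85 for Hsd3b7 and Gpr183. Within groups, after the group means were removed, the same pairs had r of 0.03, 0.06 and -0.21.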

How the data were processed

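RNA of 18 libraries was measured by sequencing. Per the labels, the authors aligned reads with STAR to mm10; the version and annotation are not given in the sources used here. They deposited RPKM values for 18668 symbols, of which 24 are altered into dates. Their own test needs counts, so limma 3.58.1 (R 4.3.3) was fitted to log2(RPKM + 0.1) with 6 group means and a trended eBayes, over the 12838 genes that reached 0.1 RPKM in 3 or more libraries, with Benjamini-Hochberg adjustment within each of 11 comparisons. The scripts were tested on simulated data with independent errors, so the test did not cover correlation between libraries of an animal.

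Depth was recovered from steps of 1 read in low values: 83.7% of 24372 values lay within 0.05 of a whole step. Member reads used the exon length giving whole reads (within 0.2) in all 18 libraries. No count test was run on these values.

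Deviations from group means correlated (0.183 to 0.695) in each of the 18 same-numbered pairs inside a genotype, so numbers were taken to mark an animal. P-values measure the spread between these libraries. Named genes were the 5 members, check genes, up to 3 risen and 3 fallen called genes of each list with oxLDL 60 in Apoe-/-, and the 3 genes most correlated with each member; some genes that this rule names are not reported here. Members and lists were chosen with earlier results of these data known. Alternatives covered pseudocount, filter, scaling, fold limit, samples, sex, pairing and each library left out.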

Additional observations from a re-analysis of the deposited data

How the results depend on the processing

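Every call of Ch25h, Hsd3b7 and Gpr183 with oxLDL was kept under the 30 alternatives, and no other member result became called except for Hsd3b7 with oxLDL 10. Without a limit on the fold change, 2 members were called with oxLDL 10 in each genotype. Of 1320 values over 44 member results, 1274 kept direction and side of the threshold. With a replicate block for the animal or the number, the counts of members called stayed at 1 with oxLDL 10 and 3 with oxLDL 60, and the block changed no call of a member.

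The sign changed only in member differences that were not called. After rescaling by the median ratio, values were -0.0330 for Gpr183 with oxLDL 10 in Apoe-/-, 0.0574 for Cyp27a1 between oxLDL 60 and 10 in DKO, -0.0369 for Cyp27a1 between untreated genotypes, -0.0484 for Ch25h between genotypes with oxLDL 10, and 0.00920 for Cyp27a1 and 0.0275 for Hsd3b7 in the oxLDL 60 interaction. Without the Xist libraries, Cyp27a1 was at -0.0299 with oxLDL 10 in Apoe-/-, 0.16 between oxLDL 60 and 10 there, -0.00548 and 0.23 between genotypes untreated and with oxLDL 10, and 0.23 in the oxLDL 10 interaction, Ch25h at -0.15 between genotypes with oxLDL 10 and Gpr183 at -0.0293 with oxLDL 60. The cause was not tested.

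With 1 library left out, Cyp27a1 ranged from -0.0516 to 0.37 with oxLDL 10 and from -0.19 to 0.23 between oxLDL 60 and 10 in Apoe-/-, and in DKO from -0.0188 to 0.18 with oxLDL 10, from -0.0797 to 0.23 with oxLDL 60 and from -0.17 to 0.14 between them. Between genotypes it ranged from -0.0516 to 0.15 untreated, -0.22 to 0.20 with oxLDL 10 and -0.20 to 0.11 with oxLDL 60, and in the interactions from -0.28 to 0.14 and -0.26 to 0.0553. Ch25h between genotypes ranged from -0.0592 to 0.26, -0.22 to 0.20 and -0.33 to 0.0568, and in the oxLDL 10 interaction from -0.34 to 0.0759. Gpr183 with oxLDL 10 in Apoe-/- ranged from -0.0231 to 0.0751 and the Hsd3b7 oxLDL 10 interaction from -0.0460 to 0.12.

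Of 1200 list counts, 1171 stayed within 1.5 times. With pseudocount 1, sterol sensing genes called higher with oxLDL 60 were 2 in Apoe-/- and 1 in DKO, and after rescaling 3 in Apoe-/-. Without the Xist libraries, interferon response genes called lower with oxLDL 10 in DKO were 10. Counts of all genes called between genotypes (untreated, oxLDL 10, oxLDL 60) rose from 27, 11 and 16 to 309, 108 and 75 without the Xist libraries and fell to 13, 4 and 3 with only the groups compared. With the block by number they were 82 untreated and 23 with oxLDL 10. The untreated count was 12, 15 and 82 without DKO untreated replicate 1, 2 and 3, 14 without Apoe-/- untreated replicate 2 and 45 without Apoe-/- oxLDL 10 replicate 2, and the oxLDL 60 count was 8 without Apoe-/- oxLDL 60 replicate 3 or DKO oxLDL 60 replicate 2. With oxLDL 10 in DKO the count of 290 was 185 without DKO untreated replicate 3, 186 without DKO oxLDL 10 replicate 2 and 449 with the block for the animal. With no limit on the fold change, counts with oxLDL 10 and 60 were 904 and 3873 in Apoe-/- (358 and 1786 with it) and 510 and 3319 in DKO (290 and 1564). Depth limits Cyp7b1.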
